A study of Homo sapiens with 41 samples.

Results

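The non-clustered protocadherins examined here are PCDH18, PCDH1, PCDH7, PCDH9, PCDH10, PCDH17 and PCDH19, which are 7 of the 58721 genes counted in a serum time course of T98G cells. T98G is an established human glioblastoma line, derived from a brain tumour, whose growth arrests reversibly without serum. Cells were starved of serum for 72 h and given medium with 20% fetal calf serum, and total RNA depleted of ribosomal RNA was sequenced from 41 samples, taken at 10 min intervals through 400 min, with the starved cells as 0 min. All samples share the line and the starvation, and all but the 0 min sample share the serum dose. Each time point has 1 library and no replicate, so every standard error of a fitted difference (SE) comes from the spread of libraries about the fitted curve, which may be technical. PCDH18 was chosen for its fall at 400 min, and the other members were picked with their counts in view. The values of all 7 genes are accordingly given as a description, without a test.

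Protocadherins are transmembrane proteins of the cadherin superfamily that carry a row of calcium-binding extracellular domains and support weak, mostly homophilic contact between cells. The clustered genes lie side by side in 3 arrays and are best known for giving neurons individual surface identities, whereas the non-clustered genes are scattered over the genome and are known for cell sorting, cell movement and wiring in the developing brain. Unlike classical cadherins they do not bind beta-catenin. Within the non-clustered family, PCDH1, PCDH7 and PCDH9 belong to the delta-1 group, whose tails carry a binding motif for protein phosphatase PP1, and PCDH10, PCDH17, PCDH18 and PCDH19 belong to the delta-2 group, whose tails can recruit the actin-nucleating WAVE complex.

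PCDH18 was the one abundant member. Serum stimulation was followed by a fall of its RNA that set in around the end of the first hour. At 400 min the fitted curve was 25.5-fold below its 0 min level, and the means of the first 5 and last 6 libraries lay 22.5-fold apart. PCDH1 and PCDH7 were higher at the end than at the start, and PCDH9 and PCDH10 were close to the detection limit. Of all counts assigned to the 7 genes, PCDH18 held 87.4% at 400 min (95% Wilson interval 85.4 to 89.2%) and 99.5% at 0 min (99.4 to 99.6%). PCDH18 had 370423 counts over the course, PCDH1 3592, PCDH7 3210, PCDH9 222, PCDH10 96, PCDH17 7 and PCDH19 4. A gene was carried into the fit when it had more than 10 counts in at least 1 library and more than 2 in at least 3 consecutive ones, and 5 of the 7 members met this, PCDH17 and PCDH19 being left out. Library totals were 18206982 to 64948114 counts (median 41773419), and counts are given below divided by the size factor of their library (0.447 to 1.60).

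PCDH18, known in mouse for binding the adaptor DAB1 and in zebrafish for guiding cell movement, (ENSG00000189184.11) is a compact gene of 13.577 kb on chromosome 4 (GRCh38, chr4:137518918-137532494, minus strand). PCDH7 (ENSG00000169851.15), on the plus strand of the same chromosome (chr4:30720369-31146805), spans 426.437 kb. The 250 bases before the annotated start of each are shown because the RNA of these members moved in opposite directions over one course and both starts are the same in RefSeq (GRCh38.p14) and in the gene annotation used. They read 5′ to 3′ on the strand of the gene, and capitals mark the single motif match, a CCAAT box lying on the opposite strand.
PCDH18, chr4:137532495-137532744, minus strand: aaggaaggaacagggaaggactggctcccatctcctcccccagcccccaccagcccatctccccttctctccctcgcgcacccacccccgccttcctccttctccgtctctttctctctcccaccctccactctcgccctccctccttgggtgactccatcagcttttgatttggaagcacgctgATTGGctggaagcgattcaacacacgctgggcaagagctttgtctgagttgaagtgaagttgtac
PCDH7, chr4:30720119-30720368, plus strand: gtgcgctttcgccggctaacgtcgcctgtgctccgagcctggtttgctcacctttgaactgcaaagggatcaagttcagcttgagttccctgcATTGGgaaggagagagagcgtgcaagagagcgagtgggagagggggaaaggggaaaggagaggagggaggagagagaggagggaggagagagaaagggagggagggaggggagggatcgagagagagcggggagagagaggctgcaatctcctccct

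The match lies 65 to 61 bases before the start of PCDH18 and 157 to 153 bases before that of PCDH7, and CCAAT occurs on either strand in 32.0% of the 35116 RefSeq promoters of this length. Other motifs were searched on both strands of these windows without a match. They were the TATA box (TATAAA, in 10.7% of promoters), the GC box (GGGCGG, 42.6%), an E-box (CACGTG, 6.34%), an AP-1 element (TGACTCA, 4.20%), a CRE (TGACGTCA, 1.65%), a FOXO element (GTAAACA, 2.98%), a TEAD element (GGAATG, 11.9%) and the CArG box (1.16%), and none of the strings searched contains another. Both windows were close in G and C content (58.4% in PCDH18 and 59.6% in PCDH7) to the median of 58.0% over all promoters. Of the other members, PCDH1 has 2 GC boxes and no CCAAT box, PCDH9 and PCDH19 have both kinds, and PCDH17 has a CCAAT box alone. The RefSeq starts of PCDH1 (141869627) and PCDH9 (67230336) lie inside the annotated genes, which begin at 141879246 and 67230445. Their windows therefore do not end at the annotated starts.

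The PCDH18 level stayed on a plateau for about the first hour. In the libraries of 0, 10, 20, 30 and 40 min its normalized counts were 22966, 21241, 24022, 20732 and 24735, the last being the highest of the course. In those of 50, 60, 70, 80, 90 and 100 min they were 22075, 21436, 18832, 16020, 18795 and 17090.0. The curve fitted to all libraries was lower by 0.11 (SE 0.12) on the log2 scale at 60 min than at 0 min, less than its error, so a difference in the first hour was not larger than the spread.

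The steady part of the fall followed. At 110, 120, 130, 140, 150 and 160 min the normalized counts were 15113, 13776, 13237, 11049, 10009 and 9075, each library lower than the one before it. At 170, 180, 190, 200, 210 and 220 min PCDH18 held 8043, 7732, 6550, 5442, 5647 and 5154. At 230, 240, 250, 260, 270 and 280 min it held 4093, 3471, 3298, 2484, 2247 and 2017, so only the 210 min library broke the descent. Against 0 min the fitted log2 difference was −0.73 (SE 0.12) at 120 min and −2.80 (SE 0.09) at 240 min.

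The fall slowed toward the end of the course, and only the last 6 libraries lay level. PCDH18 stood at 1634, 1443, 1432, 1234, 1236 and 1258 in the libraries of 290, 300, 310, 320, 330 and 340 min. Those of 350, 360, 370, 380, 390 and 400 min held 1040.1, 1036, 1009, 963, 971 and 1035, the 380 min library being the lowest of the course. These last 6 libraries averaged 1009 ± 34.4 (SD) and the first 5 averaged 22739 ± 1729, so the means lie 22.5-fold apart, and the lowest early library is 19.9 times the highest late one. The fitted log2 difference at 400 min was −4.68 (SE 0.11), a level 25.5-fold below that at 0 min, and scaling by the spike-in RNAs in place of the gene counts gave −4.62 (SE 0.25). Without the 3 smallest libraries, those of 20, 50 and 340 min, it was −4.72 (SE 0.12), and without the 0 min library, with the 0 min end of the curve extrapolated, −4.54 (SE 0.32).

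**Figure D1:**
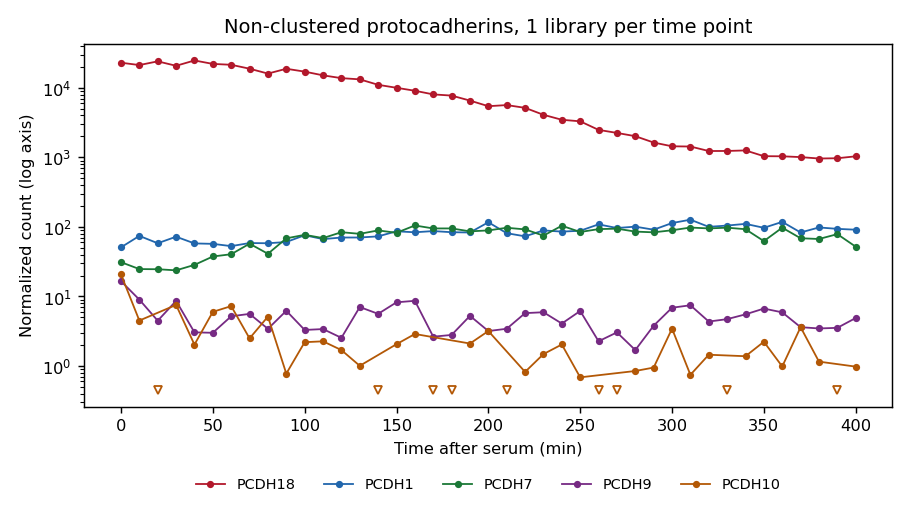
Normalized count (log axis) of the 5 members that entered the fit against time after serum in minutes, 1 point per library, with open triangles at the bottom for PCDH10 libraries with no count. PCDH18 starts at 22966 and ends at 1035, PCDH1 and PCDH7 stay between 23.7 and 127, and PCDH9 and PCDH10 have their highest value in the 0 min library.

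The pace of the PCDH18 fall was uneven. A straight line through the log2 values had a slope of −0.28 per h (SE 0.08) over 0 to 100 min, −0.94 per h (SE 0.03) over 100 to 200 min, −1.26 per h (SE 0.06) over 200 to 300 min and −0.36 per h (SE 0.05) over 300 to 400 min. The steepest window corresponds to a halving every 47.8 min. A running mean of 3 libraries had covered 10% of its way from the 0 to 10 min level to its lowest value at 63.9 min, the midpoint at 139.1 min and 90% at 249.8 min. With spike-in scaling these times were 53.8, 147.1 and 262.3 min. Fewer cells with the RNA and less RNA per cell cannot be told apart in such bulk samples, nor do these counts separate synthesis from decay.

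In starved cells PCDH18 was among the prominent messages of the line. Per kilobase of exon its normalized count was 155 at 400 min, against 3435 at 0 min. Among 14056 protein-coding genes that passed the filter, ordered by this level, it held rank 5796 at 400 min and rank 160 at 0 min. The other members ranked low at both ends: PCDH1 was at rank 11329 (15.4 per kb) at 400 min, against 12211 (8.58 per kb) at 0 min, and PCDH7 at rank 12663 (4.03 per kb) at 400 min, against 13234 (2.41 per kb) at 0 min. At 400 min PCDH18 was thus still the highest of the 7 per length, above PCDH1, PCDH7, PCDH9 (0.158 per kb) and PCDH10 (0.0963 per kb).

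**Figure D2:**
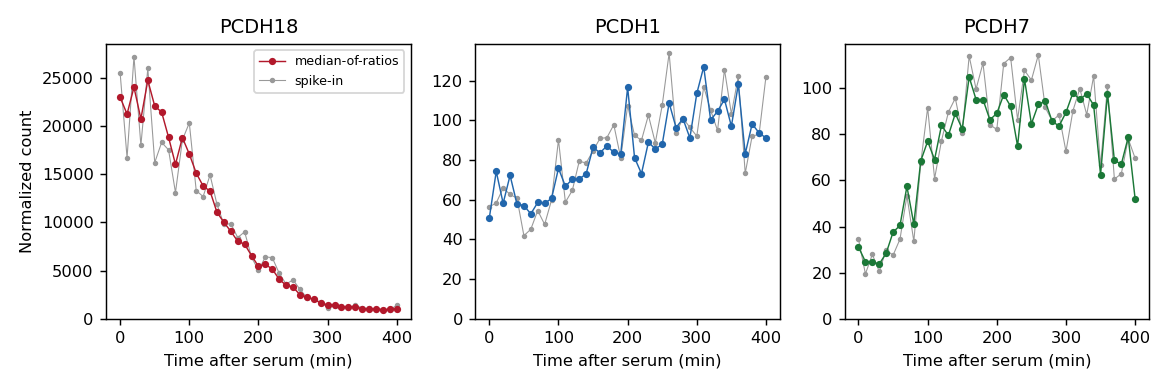
Normalized count (linear axes, each from 0) of PCDH18, PCDH1 and PCDH7 against time after serum in minutes, 1 point per library, scaled by gene counts (coloured) and by spike-in RNAs (grey). PCDH18 passes its midpoint at 139.1 min, PCDH7 climbs between 40 and 160 min to its highest value of 104.9, and PCDH1 drifts upward with a highest value of 127.1 at 310 min.

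PCDH7, a delta-1 protocadherin that binds the phosphatase inhibitor SET and is known as a driver of lung tumour growth, was the earliest member to be higher than at the start. Its normalized count was 31.1, 24.8, 24.6, 23.7 and 28.4 in the libraries of 0, 10, 20, 30 and 40 min. It was 37.6 to 77.0 (median 49.2) over 50 to 100 min and 69.1 to 104.9 (median 83.1) over 110 to 160 min. The 5 earliest libraries therefore lie below all later ones. From 170 to 340 min the libraries held 74.9 to 104.0, and the last 6 held 51.9 to 97.5 (median 67.9), overlapping with them. The fitted log2 difference against 0 min was 0.42 (SE 0.27) at 60 min, 1.39 (SE 0.25) at 120 min, 1.59 (SE 0.24) at 240 min and 1.13 (SE 0.26) at 400 min, the last being 2.19-fold. Without the 0 min library the difference at 400 min was 1.09 (SE 0.87), not clear of its error. Its slope was 0.94 per h (SE 0.17) over 0 to 100 min and −0.41 per h (SE 0.13) over 300 to 400 min, and its midpoint fell at 91.0 min (93.9 min with spike-in scaling).

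PCDH1 (ENSG00000156453.13, chr5:141853090-141879246, minus strand), a delta-1 protocadherin of airway and other epithelia that binds SMAD3, had the smallest difference at 400 min and the latest midpoint of PCDH18, PCDH7 and itself. Its normalized count was 50.8, 74.3, 58.2, 72.3 and 57.9 in the libraries of 0, 10, 20, 30 and 40 min, and 97.1, 118, 83.2, 98.2, 93.8 and 91.2 in those of 350, 360, 370, 380, 390 and 400 min. These late values lie above all of the early ones. Over 290 to 340 min the libraries held 91.2 to 127.1 (median 107.6). The fitted log2 difference was 0.03 (SE 0.21) at 60 min, 0.46 (SE 0.21) at 120 min, 0.84 (SE 0.19) at 240 min and 0.85 (SE 0.21) at 400 min. The last, a 1.80-fold level, leaned on the 0 min library, which was the lowest of the course. Without it the difference at 400 min was 0.32 (SE 0.56), and the window of 350 to 400 min against that of 0 to 10 min gave 0.64 (SE 0.16). With evenly spaced knots it was 0.15 (SE 0.15) at 120 min and 0.52 (SE 0.18) at 400 min, and with 5 degrees of freedom 0.16 (SE 0.17) and 0.64 (SE 0.19). Its midpoint lay at 240.9 min, but at 155.9 min with spike-in scaling.

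PCDH9, expressed mostly in the nervous system, and PCDH10, a delta-2 protocadherin of neural circuits, were low throughout. PCDH9 (ENSG00000184226.14, chr13:66302834-67230445, minus strand) spans 927.612 kb and PCDH10 (ENSG00000138650.8, chr4:133149294-133208606, plus strand) 59.313 kb. PCDH9 had 16.6 normalized counts in the 0 min library and 1.70 to 9.01 (median 4.60) in the other 40. PCDH10 had 20.7 in the 0 min library and 0 to 7.55 (median 1.42) in the rest, with at least 1 count in 32 of 41 libraries. The starved library alone thus held 7.21% of all PCDH9 counts (16 of 222, 95% Wilson interval 4.48 to 11.4%) and 20.8% of all PCDH10 counts (20 of 96, 13.9 to 30.0%), where its share of the summed size factors was 2.27%. The intervals reflect counting error alone, in the library that holds the highest value of both genes, so they are no test against that share. PCDH10 passed the filter only through that library, so it had to differ. The fitted log2 difference at 400 min was −1.67 (SE 0.51) for PCDH9 and −3.78 (SE 0.79) for PCDH10, and without the 0 min library it was −0.55 (SE 1.60) and −1.60 (SE 2.64), within the error. The 0 min library was the highest of 41 in 7.12% of the 3299 tested genes with a mean under 10, where an even spread would give 2.44% and the 20 min library, among the smallest, 7.91%. What part this library has in the values of PCDH9 and PCDH10 was not tested.

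PCDH17 and PCDH19, delta-2 protocadherins known from neuronal circuits and, for PCDH19, from an inherited epilepsy, were barely seen. PCDH17 (ENSG00000118946.11) lies at chr13:57631744-57729311 on the plus strand and PCDH19 (ENSG00000165194.15) at chrX:100291644-100410273 on the minus strand. PCDH17 had 7 counts in 6 libraries, 1 each at 0, 20, 80, 180 and 190 min and 2 at 120 min. PCDH19 had 4 counts, 1 each at 40, 50, 130 and 170 min. A library with no count allows up to 3, so no course can be drawn for either at this depth, and both were without a count in the last 6 libraries.

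**Figure D3:**
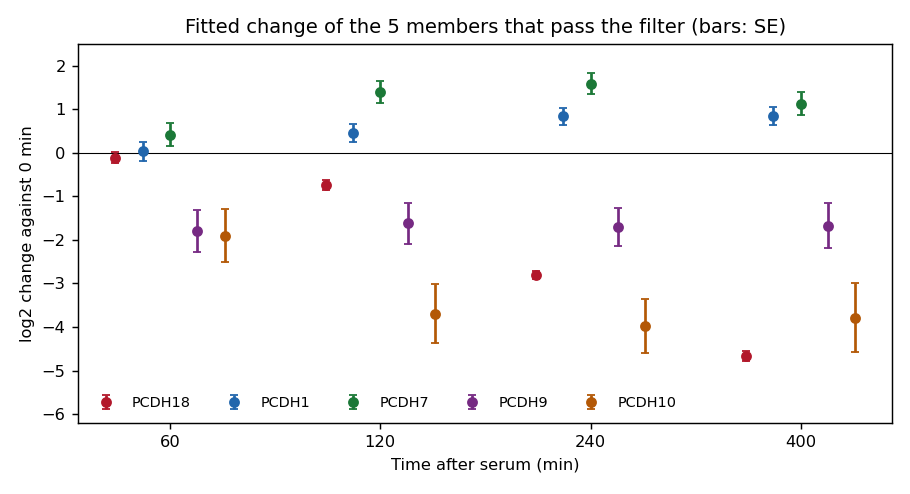
Fitted log2 difference against 0 min at 60, 120, 240 and 400 min for the 5 members that entered the fit, with bars of 1 SE on either side. PCDH18 reaches −4.68, PCDH7 is highest at 240 min (1.59), and the bars of PCDH9 and PCDH10 are the widest.

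The threshold used for other genes is an edgeR adjusted p below 0.01 against 0 min, and since the values chose the members, their standing on it is a description from which nothing is read. At 60 min 0 of the 5 fitted members were past it, where 5.15% of the 21629 genes tested were higher and 1.23% lower. At 120 min 1 was past it on the higher side and 3 on the lower, where 13.6% and 6.75% of genes were. At 240 min, as at 400 min, the counts were 2 (PCDH1 and PCDH7) and 3 (PCDH18, PCDH9 and PCDH10, the last of which had to differ), beside 21.6% and 18.5% of all genes at 240 min and 24.2% and 22.4% at 400 min. In the Ljung–Box test of autocorrelation 3 members and 60.9% of all genes were past an adjusted p of 0.01. Over the 41 libraries, which follow one another in time, the log2 levels of PCDH18 and PCDH1 had a Pearson r of −0.84, those of PCDH18 and PCDH7 of −0.56 and those of PCDH1 and PCDH7 of 0.67.

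The protein-coding genes whose courses were most like that of PCDH18, out of 11144 with a mean of at least 100, were FLRT2 (r = 0.997), ST8SIA1 (0.996), MEGF9 (0.995), VAV3 (0.995) and PLD1 (0.995). FLRT2, a transmembrane guidance protein of the cell surface, had 354 normalized counts at 400 min, against 2181 at 0 min, a log2 change of −2.70 (SE 0.10). ST8SIA1, the sialyltransferase that makes ganglioside GD3, had 160 at 400 min, against 2111 at 0 min, a log2 change of −3.84 (SE 0.13). The log2 changes were −2.76 (SE 0.10) for MEGF9, −3.34 (SE 0.13) for VAV3, a guanine nucleotide exchange factor, and −3.05 (SE 0.13) for PLD1, a phospholipase D. They are set beside −4.68 for PCDH18. All 5 genes were picked for their likeness to PCDH18, so a fall at 400 min follows from the choice and no test is given. By rank correlation 1 of these 5, ST8SIA1, stayed among the 5 most like.

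PCDH7 was most like LIF (r = 0.953) and CLCF1 (0.948), cytokines of the IL6 family. LIF had 4407 normalized counts at 400 min, against 462 at 0 min, a log2 change of 3.35 (SE 0.12), set beside 1.13 for PCDH7. PCDH1 was most like P4HA2 (0.912), a collagen prolyl hydroxylase, and VOPP1 (0.912), whose log2 changes at 400 min were 0.57 (SE 0.06) and 0.65 (SE 0.06). Both, like LIF and CLCF1, were picked for their likeness to a member, so a rise follows from the choice and no test is given. Without the 0 min library the changes of P4HA2 and VOPP1 were 0.43 (SE 0.16) and 0.50 (SE 0.15). With spike-in scaling that of P4HA2 was 0.61 (SE 0.20). By rank correlation P4HA2 stayed among the genes nearest to PCDH1, while VOPP1, LIF and CLCF1 did not stay among those nearest to their member. Likeness here is that of 41 ordered libraries sharing one time axis.

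The study asked about transcripts beside protein-coding genes, so annotated genes starting within 100 kb of a member were followed. The start of LINC02172, a long noncoding RNA on the plus strand (chr4:137545731-137603430), lies 13.2 kb upstream of that of PCDH18, and the genes do not overlap. It was scarce, with 168 counts in all. Its counts summed to 33 in the 5 libraries of 0 to 40 min, 59 in the 6 of 50 to 100 min, 46 over 110 to 160 min, 11 over 170 to 220 min, 14 over 230 to 280 min, 4 over 290 to 340 min and 1 over 350 to 400 min. Every library up to 150 min held at least 1, 135 counts together, and the 25 later libraries held 33. LINC02172 passed the filter only through libraries up to 150 min, since those of 160 to 400 min held at most 3.44 normalized counts. It could thus be tested only because it was high early, so no p is given for its lower late level. It had no count at 400 min, so no fold is given. Whether the pair is linked was not tested.

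Beside PCDH1, RNF14, a ubiquitin ligase gene, had 3327 normalized counts at 400 min, against 2180 at 0 min, a rise of 0.57 on the log2 scale (SE 0.06, edgeR adjusted p 8.1e-11). It was not past the threshold with spike-in scaling (0.61, SE 0.23) or without the 0 min library (0.50, SE 0.16). DELE1 (0.14, adjusted p 0.06), the noncoding ENSG00000271871 (−0.87, 0.14) and the pseudogene ENSG00000226040 (0.047) did not pass by edgeR. Beside PCDH9 the pseudogene RPSAP53 did not pass either (0.21, edgeR adjusted p 0.85). No neighbour of PCDH7, PCDH10, PCDH17 or PCDH19 passed the filter, the divergent PCDH10-DT having 1 count in all.

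Among the remaining non-clustered protocadherins, 1 of 5 listed genes, PCDH12 of endothelium, was tested and did not pass (log2 change −0.81, SE 0.53, edgeR adjusted p 0.19). PCDH8, PCDH11X, PCDH15 and PCDH20 had 1 to 9 counts. Of the clustered protocadherins on chromosome 5, 38 of 52 tested fell at 400 min, with a median log2 change of −0.79. Over all genes 22.4% fell and the median was −0.004. These 38 include all 22 gamma genes, which share reads with one another, and are not separate observations, so nothing is read from the comparison. By edgeR 0 of the 52 clustered genes rose, also at an unadjusted p below 0.05 (0) and by DESeq2 (0). Of the 15 beta genes tested 14 fell, by 0.51 to 1.96 over the cluster. PCDHB9 had 99.0 normalized counts at 400 min, against 286 at 0 min (−1.54, SE 0.16, edgeR adjusted p 8.4e-12), and among beta genes with a mean of at least 50 it was followed by PCDHB7 (−1.12, SE 0.16) and PCDHB8 (−1.05, SE 0.23). PCDHB8 was not past the threshold without the 0 min library (−0.93, SE 0.58).

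Of the 15 alpha genes, each with 466 to 830 counts, 2 fell (median −1.20). All 22 gamma genes fell, by 0.37 to 0.42 (median −0.40), and 21 of them had totals within 10% of the lowest. The alpha genes share their last exons, as do the gamma genes, and reads there were counted for each, so neither cluster gives separate observations. The number of clustered genes past the threshold leaned on scaling and on 1 library, at 9 with spike-in size factors and 2 without the 0 min library, all of them beta genes. In the other fits it was between 36 (no filter) and 46 (evenly spaced knots). Errors were larger in both of the former fits, that without the 0 min library extrapolating the curve at 0 min. For PCDHB9 the SE was 0.24 with spike-in size factors and 0.41 without the 0 min library, against 0.16 as reported. The medians were −1.22, −1.0 and −0.36 for alpha, beta and gamma genes with spike-in size factors and −0.53, −0.89 and −0.47 without the 0 min library. The lowest log2 change among the clustered genes was −1.96 (SE 0.64), set beside −4.68 for PCDH18. It belongs to a scarce beta gene, with a mean of 15.7 normalized counts and 1.96 at 400 min, close to the detection limit. Among clustered genes with a mean of at least 50 the lowest was that of PCDHB9 (−1.54).

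**Figure D4:**
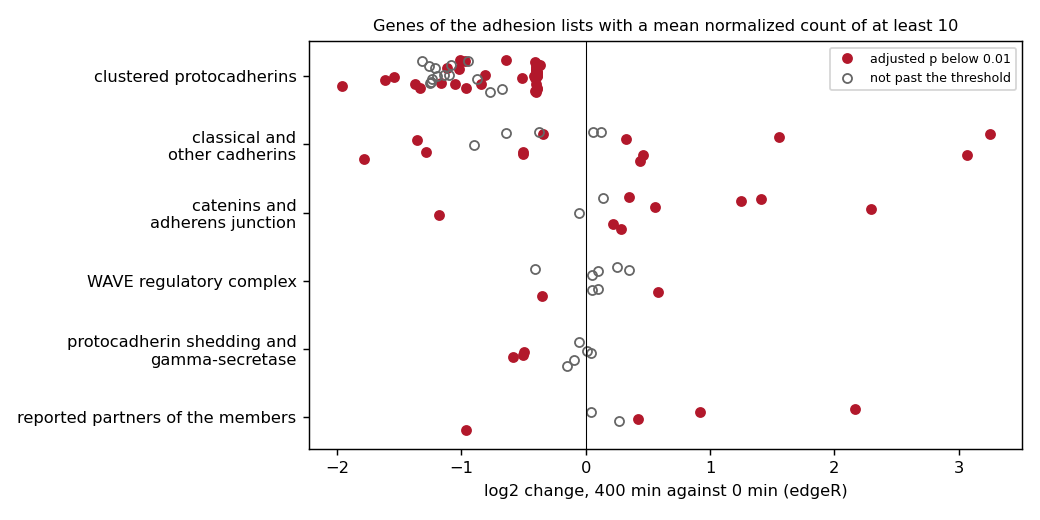
Log2 change at 400 min against 0 min for genes of 6 adhesion lists with a mean normalized count of at least 10, 1 point per gene, filled where the edgeR adjusted p was below 0.01 and spread vertically within a row for legibility. The clustered protocadherins lie left of 0, down to −1.96, and cadherins lie on both sides, with CDH2 at 3.07.

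The wider cadherin superfamily, from classical cadherins that join cells through catenins to the FAT, Dachsous and CELSR proteins, moved both ways at 400 min. Of 18 tested 7 rose and 6 fell (median −0.14), beside 24.2% and 22.4% of all genes, and these were 4 and 2 with spike-in scaling and 2 and 1 without the 0 min library. CDH2, the N-cadherin of neural and mesenchymal cells, had 5880 normalized counts at 400 min, against 682 at 0 min (log2 change 3.07, SE 0.09, edgeR adjusted p 2.7e-30). FAT4, a giant cadherin of planar polarity, had a log2 change of 1.56 (SE 0.14), and CELSR2, also of planar polarity, of −1.35 (SE 0.21). CDH6 (0.47, SE 0.12), CELSR1 (−0.50, SE 0.14) and CDH24 (−0.50, SE 0.16) passed by edgeR as well. With spike-in scaling these 3 had changes of 0.51 (SE 0.28), −0.48 (SE 0.20) and −0.49 (SE 0.25) and were not past the threshold. Without the 0 min library CDH6 (0.85, SE 0.30), CELSR1 (−0.54, SE 0.38), CDH24 (−0.27, SE 0.44) and CELSR2 (−1.67, SE 0.50) were not past it either, with larger errors throughout.

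Of 12 tested catenins and adherens junction genes 7 rose and 1 fell (median 0.32), beside 24.2% and 22.4% of all genes, and 3 rose with spike-in scaling and 2 without the 0 min library. VCL, the actin linker vinculin, had 25604 normalized counts at 400 min, against 5174 at 0 min (log2 change 2.30, SE 0.07, edgeR adjusted p 3.6e-30), and CTNNAL1, a relative of alpha-catenin, and NECTIN3, an adhesion molecule, had log2 changes of 1.41 (SE 0.12) and 1.25 (SE 0.18). NECTIN3 had a change of 1.59 (SE 0.48) without the 0 min library and was then not past the threshold. The tails of PCDH10 and its delta-2 relatives recruit the WAVE complex, and 10 genes listed for it were tested. RAC1, a GTPase that activates the complex and is not a subunit, rose by 0.58 (SE 0.05, edgeR adjusted p 1.3e-14). None of the subunits tested rose past the threshold, and WASF2 fell by 0.35 (SE 0.08, edgeR adjusted p 4.4e-04), where 24.2% of all genes rose and 22.4% fell. With spike-in scaling the changes of RAC1 and WASF2 were 0.62 (SE 0.22) and −0.31 (SE 0.19) and not past the threshold. That of WASF2 was not past it without the 0 min library either (−0.52, SE 0.22). NCKAP1, the subunit bound by PCDH10, did not pass (0.25, SE 0.17, edgeR adjusted p 0.22). Of 8 genes of protocadherin cleavage 3 fell (median −0.13), beside 22.4% of all genes. They were the gamma-secretase subunits APH1B (−0.59, SE 0.09) and NCSTN (−0.50, SE 0.07) and the sheddase ADAM17 (−0.51, SE 0.07), none of which was past the threshold with spike-in scaling (−0.54 to −0.46) or without the 0 min library (−0.78 to −0.53).

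Of 6 reported partners of the members 3 rose and 1 fell (median 0.34), beside 24.2% and 22.4% of all genes. DAB1, the reelin adaptor bound by mouse Pcdh18, had 88.2 normalized counts at 400 min, against 169 at 0 min (log2 change −0.97, SE 0.17, edgeR adjusted p 3.0e-06). Its change was −1.41 (SE 0.43) without the 0 min library and not past the threshold. SMAD3, the TGF-beta effector bound by PCDH1, had 7428 at 400 min, against 1745 at 0 min (2.17, SE 0.10, edgeR adjusted p 2.5e-23), and SET, bound by PCDH7, had 17405 at 400 min, against 8656 at 0 min (0.92, SE 0.06, adjusted p 2.6e-18). PSPC1, a paraspeckle protein, rose by 0.42 (SE 0.07, edgeR adjusted p 1.3e-06), and was not past the threshold with spike-in scaling (0.46, SE 0.23) or without the 0 min library (0.45, SE 0.18). PPP1CA, the PP1 catalytic subunit that delta-1 tails bind (0.26, adjusted p 0.016), and NONO (0.04, adjusted p 0.60) did not pass by edgeR.

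As a check of the labelled cell type, VIM and CD44, carried by mesenchymal glioma lines, averaged 50048 and 23721 normalized counts over the libraries, while NES (38.3) and the glial OLIG2 (34.0) were lower and GFAP, S100B and SOX2 were near 0, with 73, 56 and 10 counts in all. Of markers of other cell types, SNAP25 of neurons averaged 570 and the neuronal RBFOX3 had 2 counts in all. PTPRC of leukocytes (3.36), PECAM1 of endothelium (11.5), EPCAM of epithelium (11.6) and MBP (2.93) were low on average. These levels alone do not identify the line. By edgeR 0 of the 4 tested markers of other cell types passed at 400 min, with 2 lower and 0 higher at an unadjusted p below 0.05 and 0 past the threshold by DESeq2.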

How the data were processed

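Total RNA depleted of ribosomal RNA was sequenced from 41 T98G samples, 1 per time point, grouped by the time in their labels. Per the submitters' processing notes and the study's methods, the authors trimmed reads with cutadapt 1.11, used STAR 2.5.2a for alignment (GRCh38) and deposited raw counts per gene from featureCounts, by strand and over exons, in which a read touching several genes was counted for each. A normalized signal was deposited too, for which the authors scaled each library by its DESeq2 1.24.0 size factor (median of ratios), and recomputing it gave the same values. Symbols, positions and exon lengths were taken from GENCODE release 44 (GRCh38), in which 58207 of 58721 genes were found, and 45 copies on the Y chromosome of pseudoautosomal genes were left out. The table also holds 77 spike-in sequences.

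The filter kept 21629 genes. Counts were fitted in edgeR 4.0.16 (R 4.3.3, limma 3.58.1) with robust quasi-likelihood dispersions and a natural cubic spline over time (7 degrees of freedom, knots at 20, 40, 60, 100, 160 and 260 min). This left 33 residual degrees of freedom, with a common dispersion of 0.005116. Fitted values at 60, 120, 240 and 400 min were set against the fitted 0 min value, with Benjamini-Hochberg adjustment over all genes and a threshold of 0.01. Autocorrelation was tested with the Ljung–Box test at lag 1. Likeness was Pearson's r of log2(normalized count + 1). Shares carry Wilson intervals, which reflect counting error alone. Promoters are those of RefSeq (GRCh38.p14), which held 6 of the 7 members (not PCDH10). Protein sequences were not analysed here.

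Named are all members, up to 3 genes with the largest rise and 3 with the largest fall past the threshold in each list with a mean of at least 50, the 5 genes most like PCDH18 and 3 most like PCDH1 and PCDH7, and neighbours within 100 kb that passed the filter. Values of other genes are given only beside these. Some genes that the rule names are not reported here. The members and the lists were chosen with earlier results of these data known. Alternatives were TMM and spike-in size factors, no filter, evenly spaced knots, 5 degrees of freedom, windows of time in place of the spline (350 to 400 min against 0 to 10 min), DESeq2 1.42.0, and fits without the 0 min library or without the 20, 50 and 340 min libraries, which are the smallest.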

Additional observations from a re-analysis of the deposited data

How the results depend on the processing

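The PCDH18 log2 difference at 400 min was −4.55 with evenly spaced knots, −4.54 without the 0 min library and −4.45 with windows of time, against −4.68 as reported, and it moved by less than its error under the other alternatives. At 120 min it was −0.60 without the 0 min library, against −0.73. The median of all genes shifted by at most 0.04 under any scaling or fit. With spike-in size factors, the genes past the threshold at 400 min were 9 lower clustered protocadherins, 4 higher and 2 lower cadherins, 3 higher and 0 lower catenins and junction genes, 0 higher and 0 lower WAVE genes and 0 lower shedding genes. Genes with an autocorrelated profile numbered 26 (46 as reported), 7 (13), 1 (4) and 0 (5) among clustered protocadherins, cadherins, WAVE and shedding genes, and 7925 (13177) among all. Without the 0 min library, whose curve at 0 min is extrapolated, 2 clustered protocadherins, 1 cadherin and 0 of the junction, WAVE, shedding and partner genes were lower, and 2 cadherins and 2 junction genes were higher. The WAVE list had 2 higher genes with evenly spaced knots, and 2 higher and 2 lower with windows of time or with a threshold of 0.05. Of 351 values of 39 named genes outside the members under these alternatives, 315 kept their direction and call and 29 kept their direction but not their call, 12 with spike-in size factors, 16 without the 0 min library and 1 (CDH24) with no filter. Their errors were 1.02 to 4.60 times those reported, and 18 of the 29 changes were as large as reported or larger. The direction turned in genes that were not past the threshold, namely PCDH12 (0.25) and ENSG00000226040 (−0.53) without the 0 min library, and RPSAP53 with evenly spaced knots (−0.29), 5 degrees of freedom (−0.37), windows of time (−0.42) and without the 0 min library (−0.75). ENSG00000226040 passed in 1 fit, that with 5 degrees of freedom. Beyond these errors, the causes were not tested. PCDH1 at 120 min had a difference of −0.06 without the 0 min library, within its error. No paired analysis was possible because each time point has 1 library and the labels carry no replicate number. Depth limits PCDH9, PCDH10, PCDH17 and PCDH19, which had at most 20 counts in any library.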
